A study of Mus musculus with 31 samples.

Results

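The genes described here are 10 genes of fat storage, fat breakdown and fat-cell hormones, chosen by name from the 22609 genes counted in each library: Lpl, Lipe, Pnpla2, Plin1, Plin4, Cidec, Fabp4, Cd36, Adipoq and Lep. Their levels were followed in masseter muscle (MM), the main muscle that closes the jaw, in 31 male C57BL/6J mice of 9 groups. Levels are given as CPM, read counts divided by the library's total on genes and scaled between libraries by TMM. Levels of different genes are compared only as RPKM, that is CPM per 1000 bases of exon.

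Fat cells store triglyceride in lipid droplets. Lipoprotein lipase, the product of Lpl, frees fatty acids from circulating triglyceride at the capillary wall, Cd36 helps to carry them into cells, and Fabp4 binds them inside fat cells and capillary endothelium. Perilipins and Cidec coat the droplet, and the lipases of Pnpla2 and Lipe break its triglyceride down when energy is needed. Skeletal muscle fibers themselves use Lpl, Cd36, Pnpla2 and Plin4 to burn fat, whereas Adipoq and Lep encode the hormones adiponectin and leptin, which come mainly from fat cells.

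The study injected MM with CFA (complete Freund's adjuvant, which causes inflammation), with collagenase type 2 (Col, which degrades the extracellular matrix) or with vehicle. The CFA experiment had 3 mice at 1d, 3 at 5d and 3 vehicle-treated mice. The Col experiment had 4 mice of each of the groups 1C and RPC given 0.2U, then 10U groups of 4 (2d), 3 (6d) and 4 (12d) mice, and 3 vehicle-treated mice. Each library came from whole muscle of 1 mouse of that strain. The labels do not give the day of 1C or RPC, nor the day on which vehicle-treated mice were collected. For 0.2U Col the study's text gives 1d and 5d, without tying either day to 1C or RPC. It gives 1d and 14d for the groups labelled 2d and 12d. In whole muscle, fewer cells of a type and less RNA per cell cannot be told apart.

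The libraries held 14843778 to 29076671 reads on genes, with a median of 20834472. Markers of skeletal muscle fibers summed to 34850 CPM or more in every library, so the labelled tissue was present throughout. Salivary gland RNA, summed over 12 marker genes with amylase (Amy1) the most abundant, was under 1000 CPM in 15 libraries and above it in 16. It reached 173500 CPM in RPC, lay between 63650 and 78770 CPM in all 3 mice at 5d post-CFA, was 69.3, 68010 and 24690 CPM in the Col vehicle group, and stayed between 11.3 and 703.7 CPM at 6d and 12d post-Col (10U). Of these 12 markers, 10 had reads in the Col vehicle group. The share of reads that fell on more than 1 gene and were not counted was 0.675 to 0.875% in the 11 libraries of 10U Col and 0.147 to 0.317% in the other 20. A set of 24 genes was more than 3-fold higher (plus 0.3 CPM) in every 10U library than in any other, and 4 were lower by that measure. Of those 24, 21 had a gene model, and 12 of these shared exon bases with a gene on the opposite strand. How the 10U libraries were counted thus cannot be told apart from the 10U treatment wherever they are compared with vehicle. The 10U days all had the higher share, and whether they were counted alike is not given in the sources used here. Among the 10 genes, Lipe shared 264 of 4518 exon bases (5.84%) with the opposite-strand gene 4732471J01Rik, Plin4 shared 6 of 5755 bases with Hdgfrp2, and the other 8 shared none.

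All 10 genes were detected in every library and passed the filter on low counts in every comparison. Per length of exon, Fabp4 was the highest, with a median of 555 RPKM over the 31 mice, ahead of Lpl (144 RPKM), Cd36 (90.8 RPKM), Pnpla2 (79.4 RPKM) and Plin4 (39.96 RPKM). Adipoq (20.5 RPKM), Lipe (13.8 RPKM), Cidec (8.10 RPKM), Plin1 (4.13 RPKM) and Lep (0.442 RPKM) were lower. The genes differed in how far mice lay apart. The CPM of Pnpla2, Cd36, Fabp4, Lpl and Lipe spanned 4.41-, 4.97-, 5.90-, 6.92- and 7.07-fold from the lowest mouse to the highest, and that of Plin4 36.4-fold. For Adipoq, Cidec, Lep and Plin1 this span was 84.8-, 105-, 123- and 179-fold. The counts behind these levels ran from 2295 to 35682 for Lpl, Pnpla2, Fabp4 and Cd36, but Lep rested on only 3 to 348 counts in a library and Plin1 on 13 to 2045, so their lowest values carry a large counting error.

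**Figure D1:**
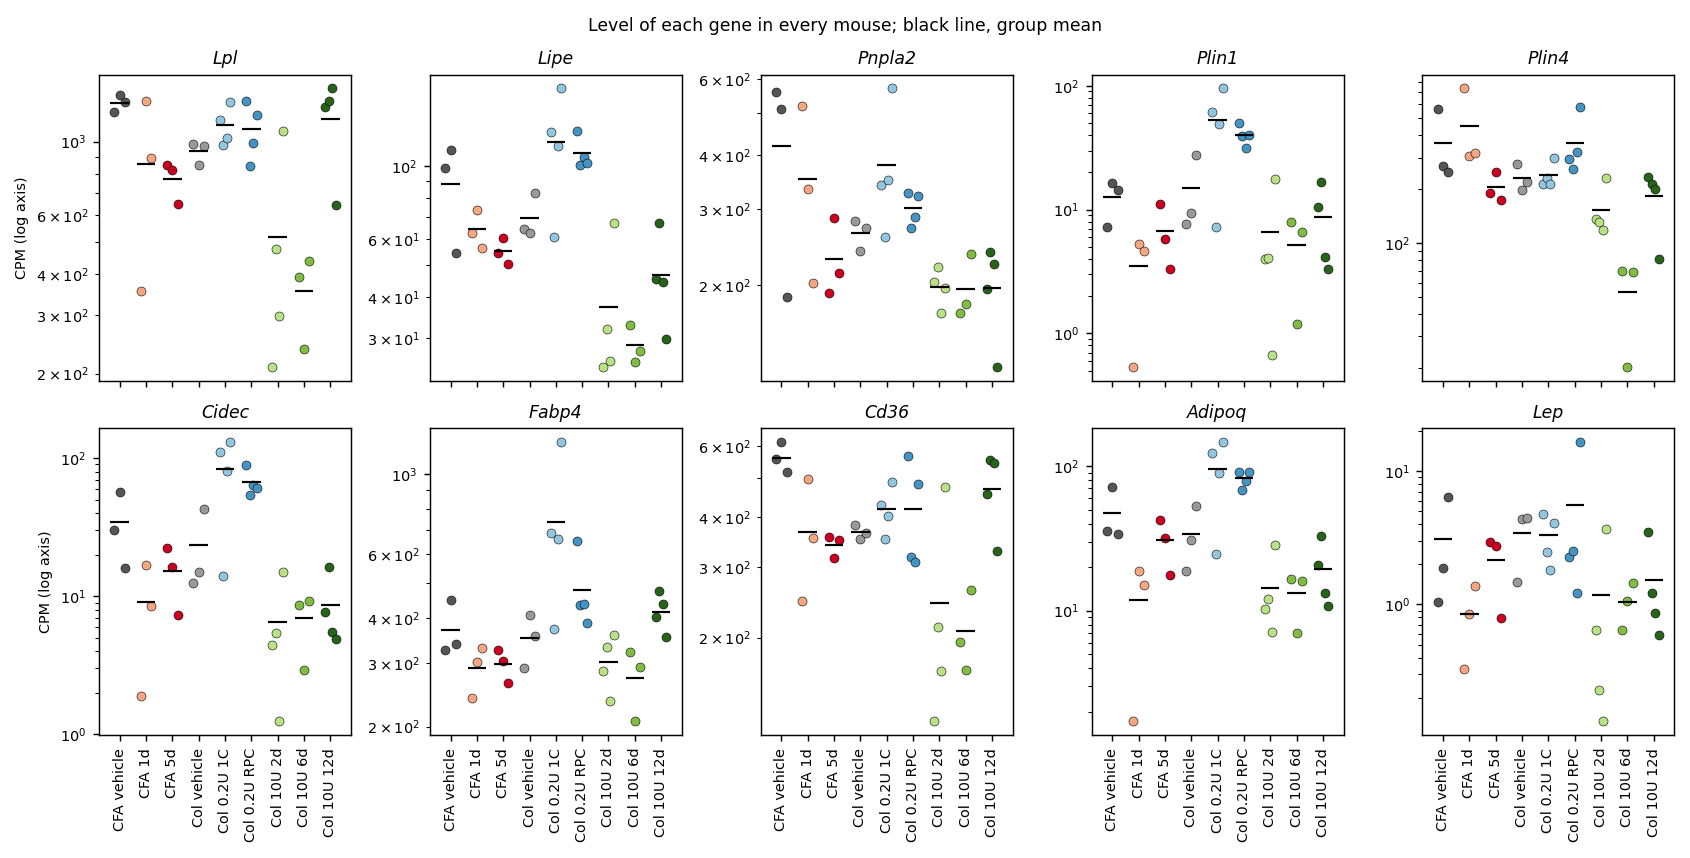
CPM of each gene (log axis) in every mouse of the 9 groups, with 1 point per mouse and a black line at the group mean. The group means of Plin1, Cidec and Adipoq are highest in the 0.2U Col groups, although 1 mouse of 1C lies far lower. The means of Lpl, Lipe and Cd36 are lowest at 6d and next lowest at 2d post-Col (10U), although replicate 4 at 2d lies higher. The mean of Plin4 is lowest at 6d, and single mice of other groups overlap with these.

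The promoters of Adipoq, Plin1 and Cidec, whose ratios varied little between mice of a group, are shown with those of the other adipokine gene, Lep, and of Plin4, which had the largest difference at 6d post-Col (10U). Each is the 250 bases before the transcription start from RefSeq, build GRCm38.p6, printed 5′ to 3′ on the gene's strand. Of the 10 genes, 8 were in the promoter table, with 10 start sites, and Lpl and Fabp4 were not. Capitals mark matches to the 6 sequences searched on both strands, and of the start sites of Cidec the one with a match is shown.
Adipoq, chr16:23146286-23146535, plus strand: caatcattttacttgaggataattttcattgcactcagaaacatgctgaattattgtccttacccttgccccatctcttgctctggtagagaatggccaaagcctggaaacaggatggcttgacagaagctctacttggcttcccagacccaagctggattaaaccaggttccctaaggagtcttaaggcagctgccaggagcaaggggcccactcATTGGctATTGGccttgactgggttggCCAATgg
Plin1, chr7:79732777-79733026, minus strand: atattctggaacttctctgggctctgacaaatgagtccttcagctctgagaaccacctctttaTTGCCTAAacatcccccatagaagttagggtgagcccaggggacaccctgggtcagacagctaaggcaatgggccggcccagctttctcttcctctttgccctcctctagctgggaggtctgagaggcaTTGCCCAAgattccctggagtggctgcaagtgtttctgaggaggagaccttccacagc
Cidec, chr6:113434765-113435014, minus strand: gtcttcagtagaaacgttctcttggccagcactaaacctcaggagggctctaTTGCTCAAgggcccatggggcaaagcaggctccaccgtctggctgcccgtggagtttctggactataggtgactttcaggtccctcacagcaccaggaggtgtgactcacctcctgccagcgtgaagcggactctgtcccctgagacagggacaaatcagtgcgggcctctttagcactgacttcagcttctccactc
Lep, chr6:29059971-29060220, plus strand: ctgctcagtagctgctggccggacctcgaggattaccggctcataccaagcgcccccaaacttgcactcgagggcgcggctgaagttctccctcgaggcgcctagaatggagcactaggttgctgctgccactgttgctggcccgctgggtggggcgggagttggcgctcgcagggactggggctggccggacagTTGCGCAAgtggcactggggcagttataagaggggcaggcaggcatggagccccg
Plin4, chr17:56109783-56110032, minus strand: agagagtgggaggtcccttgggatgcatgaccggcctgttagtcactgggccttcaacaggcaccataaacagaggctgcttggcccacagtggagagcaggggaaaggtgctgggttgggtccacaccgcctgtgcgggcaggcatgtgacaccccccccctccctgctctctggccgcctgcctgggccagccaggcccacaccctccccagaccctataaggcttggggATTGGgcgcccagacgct
The 6 sequences were the PPAR-RXR direct repeat, which is AGGTCA repeated after 1 spacer base, the single element AGGTCA, TTGCGCAA and the looser TTGCNNAA, which contains it, for factors of the C/EBP family, the TATA box TATAAA and the CCAAT box CCAAT. TTGCNNAA occurred in Plin1 at positions -187 to -180 and -58 to -51 from the start, in Cidec at -198 to -191 and in Lep at -55 to -48, where the bases were the full TTGCGCAA. Among all 32851 promoter windows of this length, 9.56% held TTGCNNAA and 0.164% held TTGCGCAA. CCAAT occurred 3 times in Adipoq, all in the last 34 bases before the start, once in Plin4 and once in Cd36 (33.8% of all windows). Cd36 also held AGGTCA (14.0% of all windows). The windows of Lipe and Pnpla2 held none of the 6, the PPAR-RXR direct repeat (0.0335% of all windows) and TATAAA (12.4%) were in no window of the 10 genes, and such matches describe letters only.

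In mice given 10U Col the question was how these genes stood as the muscle passed through damage and repair. At 6d, 5 of the 10 genes fell below vehicle by edgeR's quasi-likelihood test with an adjusted p under 0.05, namely Lpl, Lipe, Plin4, Cd36 and Lep, and none rose. In this comparison 27.3% of the 14281 genes tested passed, 13.3% of all with a lower level. The 10 log2 fold changes were all below 0, from -2.14 to -0.38 with a median of -1.41, beside a median of 0.01 over all genes. For 8 of the 10 genes, every mouse at 6d was below every vehicle-treated mouse, as were 21.2% of all genes tested.

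Lpl (chr8:71404390-71431347 in NCBIM37, the Ensembl name of build mm9, plus strand) was at 984, 852 and 969 CPM in the vehicle-treated mice, and at 390, 237 and 438 CPM at 6d. All 3 mice at 6d were below the group of vehicle, and the log2 fold change was -1.42 ± 0.30 (SE, adjusted p = 0.0163), a 2.67-fold lower level. At 2d the 4 mice had 209, 476, 299 and 1075 CPM, so that 1 of them, replicate 4, stood above all vehicle-treated mice. At 12d the level was 1271, 1325, 1445 and 645 CPM, above every mouse at 6d.

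Cd36 (chr5:17287508-17394777, minus strand), the fatty acid carrier of the cell membrane, moved with Lpl. It was at 382, 353 and 365 CPM with vehicle and at 195, 166 and 264 CPM at 6d, with no overlap and a log2 fold change of -0.84 ± 0.23 (adjusted p = 0.0344). At 2d the values were 124, 213, 165 and 476 CPM, and at 12d 457, 554, 545 and 329 CPM. Again, replicate 4 at 2d was above the vehicle-treated mice. Fabp4 (chr3:10204347-10208576, minus strand) differed less. It had 291, 407 and 355 CPM with vehicle, 321, 207 and 292 CPM at 6d and 401, 474, 436 and 353 CPM at 12d, and its log2 fold change at 6d did not pass (-0.38 ± 0.24, adjusted p = 0.266).

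Of the lipases, Lipe (chr7:26164546-26183729, minus strand), which encodes hormone-sensitive lipase, was at 64.1, 62.4 and 82.6 CPM with vehicle and at 32.9, 25.3 and 27.3 CPM at 6d. The groups were apart, and Lipe had the smallest adjusted p of the 10 genes (log2 fold change -1.32 ± 0.19, adjusted p = 0.00566). At 2d, 3 mice at 24.4, 31.9 and 25.5 CPM were near the level at 6d and replicate 4 was at 67.1 CPM, within the range of vehicle. Pnpla2 (chr7:148641097-148646642, plus strand), the first lipase of the pathway, kept within a narrower range, from 240 to 282 CPM with vehicle, from 173 to 236 CPM at 6d and from 129 to 240 CPM at 12d. At 6d its 3 mice were below those with vehicle, but the log2 fold change of -0.45 ± 0.21 did not pass (adjusted p = 0.131).

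Plin4 (chr17:56240014-56249225, minus strand), a droplet coat protein also made in muscle fibers, was at 276, 197 and 221 CPM with vehicle and at 69.9, 20.1 and 68.9 CPM at 6d. This was the largest log2 fold change of the 10 genes at 6d, -2.14 ± 0.46 (adjusted p = 0.0171), a 4.42-fold lower level. In contrast to Lpl and Cd36, Plin4 at 2d, with 136, 131, 118 and 230 CPM, was above all 3 mice at 6d, and the log2 fold change from 2d to 6d was -1.51 ± 0.46 (adjusted p = 0.0824). The droplet proteins of fat cells, Plin1 (chr7:86866050-86877662, minus strand) and Cidec (chr6:113374628-113385754, minus strand), varied widely with vehicle. Plin1 was at 7.67, 9.38 and 27.6 CPM with vehicle and at 7.905, 1.198 and 6.554 CPM at 6d, so the groups overlapped (log2 fold change -1.55 ± 0.74, adjusted p = 0.146). Cidec was at 12.5, 15.0 and 42.9 CPM with vehicle and at 8.68, 2.91 and 9.25 CPM at 6d, without overlap (log2 fold change -1.79 ± 0.60, adjusted p = 0.0595).

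Both adipokine genes had a lower level at 6d in every mouse. Lep (chr6:29010220-29023877, plus strand) was at 1.48, 4.39 and 4.43 CPM with vehicle and at 0.644, 1.06 and 1.45 CPM at 6d (log2 fold change -1.72 ± 0.52, adjusted p = 0.0450). The highest mouse at 6d and the lowest with vehicle were thus nearly level. Adipoq (chr16:23146609-23158101, plus strand) was at 18.7, 30.9 and 52.8 CPM with vehicle and at 16.6, 7.02 and 15.9 CPM at 6d (log2 fold change -1.40 ± 0.46, adjusted p = 0.0554), just short of the threshold.

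Other tissues moved with these levels at 6d. The 10 muscle fiber markers summed to 40120 to 75100 CPM, against 125700 to 195600 CPM with vehicle, the 8 macrophage markers to 992 to 1963 CPM against 91.1 to 393 CPM, and the 12 salivary gland markers to 11.3 to 32.2 CPM against 69.3 to 68010 CPM. Among the 13 white fat-cell markers that are not among the 10 genes, 4 passed as lower and 0 as higher, although their sum, led by Car3, which muscle also makes, was 546 to 1216 CPM against 418 to 839 CPM. Of the 8 endothelial markers 1 passed as lower, as did 2 of 7 markers of fibro-adipogenic progenitors, and of 6 brown fat-cell markers tested 2 passed as higher and 1 as lower. The part of these tissues in the result was not tested. With only libraries under 1000 CPM of salivary gland markers, and the 3 such mice of both vehicle groups pooled, 7 genes fell: Lpl, Lipe, Pnpla2, Plin4, Cidec, Cd36 and Adipoq, while Lep did not pass (log2 fold change -0.48 ± 0.40, adjusted p = 0.336). In that fit 55.9% of all genes passed, 26.7% as lower. Its vehicle mice were CFA replicates 1 and 2 and Col replicate 1, with 561, 510 and 282 CPM of Pnpla2. With the gland score as a covariate in a fit of all libraries, only Lipe (-1.201 ± 0.415, adjusted p = 0.0378) and Plin4 (-2.05 ± 0.51, adjusted p = 0.0091) fell, and Lpl (adjusted p = 0.0535), Cd36 (adjusted p = 0.132) and Lep (-0.18 ± 1.15, adjusted p = 0.916) did not pass. The median of the 10 genes was then -0.92, beside 0.10 over all genes, of which 24.9% passed. The count at 6d depended on single mice, with 1 gene, Lipe, left without 6d replicate 1 and 3 each without 6d replicate 2 or vehicle replicate 2, where 7.27, 5.83 and 19.8% of all genes passed.

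**Figure D2:**
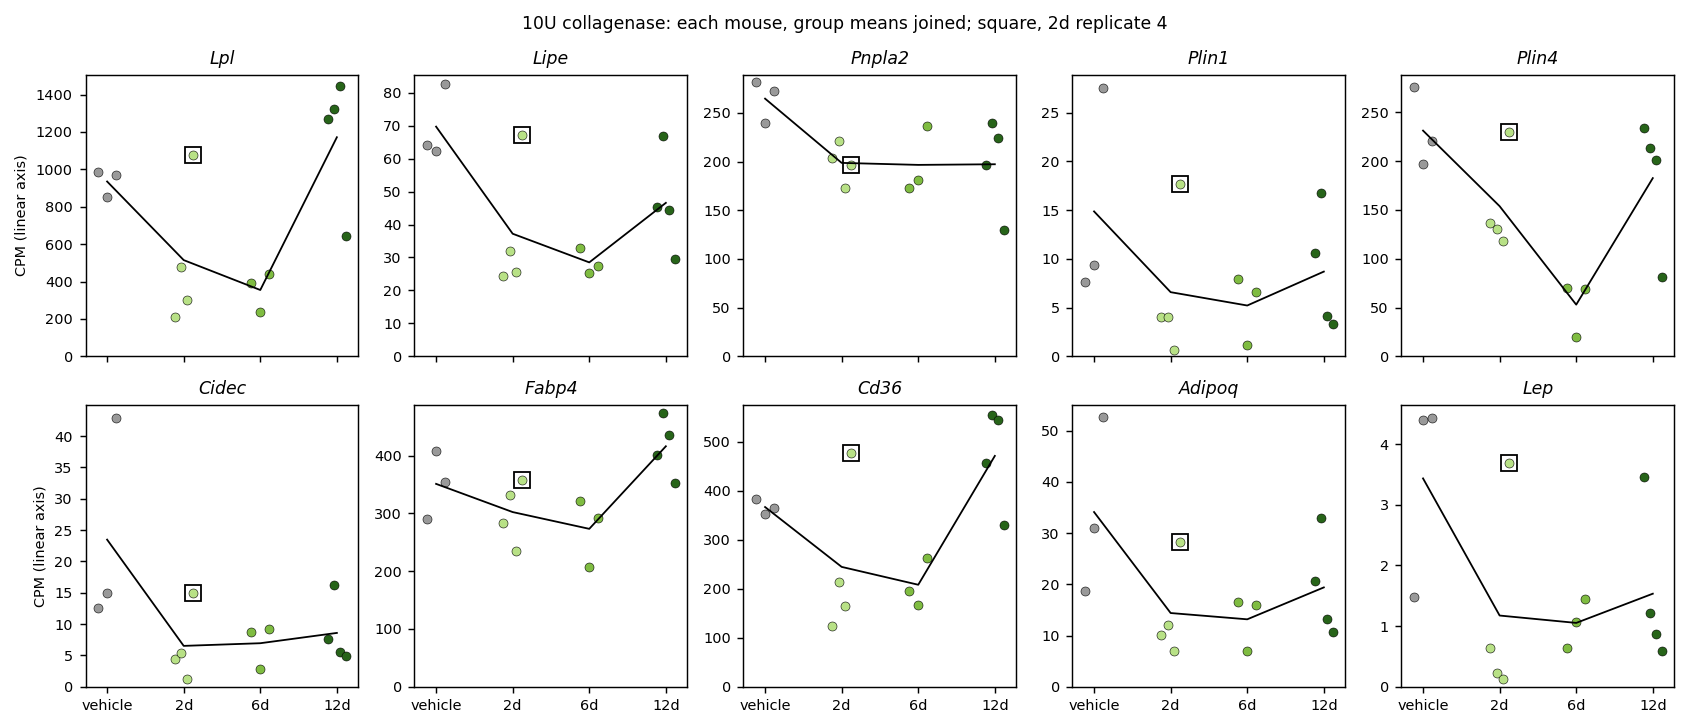
CPM of each gene (linear axis from 0) with vehicle and on each day post-Col (10U), with 1 point per mouse, group means joined by a line and a square around replicate 4 at 2d. Lpl and Cd36 fall to 237 to 438 CPM and 166 to 264 CPM at 6d and stand at 645 to 1445 CPM and 329 to 554 CPM at 12d, while Pnpla2 and Fabp4 differ less.

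At 12d, 3 of the 10 genes were higher than at 6d, Lpl, Cd36 and Plin4, and none was lower. Of the 14344 genes tested 26.4% passed, 13.4% of all with a higher level. Lpl rose 3.35-fold (log2 fold change 1.75 ± 0.37, adjusted p = 0.0186), Cd36 2.30-fold (1.199 ± 0.265, adjusted p = 0.0204) and Plin4 3.49-fold, to 234, 214, 201 and 81.6 CPM (1.80 ± 0.52, adjusted p = 0.0410). These 3 and Fabp4 had every mouse at 12d above every mouse at 6d, as did 17.6% of all genes. Fabp4 (0.63 ± 0.21, adjusted p = 0.0604) and Lipe (0.73 ± 0.26, adjusted p = 0.0680) were close to the threshold without passing it. The fat-cell genes had smaller differences beside their errors: 0.57 ± 0.45 for Adipoq, 0.75 ± 0.74 for Plin1, 0.31 ± 0.53 for Cidec and 0.57 ± 0.63 for Lep. The share of reads that fell on more than 1 gene was 0.768 to 0.852% at 6d and 0.809 to 0.875% at 12d. Salivary gland markers were at or below 704 CPM in all 7 mice, though 3 of the 4 tested passed as higher at 12d. Macrophage markers summed to 111 to 740 CPM at 12d, and 4 of the 8 passed as lower than at 6d. Muscle fiber markers summed to 153900, 122900, 139500 and 61990 CPM at 12d against 67420, 40120 and 75100 CPM at 6d, with 0 of 10 passing, and replicate 4 at 12d had the lowest muscle sum and the highest macrophage sum (740 CPM) of its group. Endothelial markers summed to 932 to 1153 CPM at 12d against 702 to 835 CPM at 6d, and 3 of the 8 passed as higher. Of 7 markers of fibro-adipogenic progenitors 1 passed as higher. Of 13 white fat-cell markers 1 passed as higher and 1 as lower, and of 6 brown ones 1 passed as higher. The part of these tissues in the rise of Lpl, Cd36 and Plin4 was not tested. No gene of the 10 passed when any of 12d replicates 1, 2 and 3 or of 6d replicates 1 and 2 was left out, where 1.66 to 9.44% of all genes passed, and 5 passed without 12d replicate 4, where 54.2% did. This mouse had the lowest level of all 10 genes at 12d.

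Against vehicle, none of the 10 genes passed at 12d, where 1.23% of 14176 genes did, and of the 10 only Cidec had an unadjusted p under 0.05, as had 17.4% of all genes. Lpl, Cd36 and Fabp4 had log2 fold changes of 0.35 ± 0.30, 0.39 ± 0.23 and 0.27 ± 0.20 above vehicle. The other 7 were below it, from -0.31 ± 0.34 for Plin4 to -1.45 ± 0.56 for Cidec, with adjusted p-values between 0.240 and 0.665 for all 10. Adipoq was at 20.7, 33.0, 13.2 and 10.7 CPM and Cidec at 7.65, 16.3, 5.55 and 4.89 CPM, so that 3 of 4 mice had less Cidec than any vehicle-treated mouse. With only libraries under 1000 CPM of salivary gland markers and pooled vehicle groups, Pnpla2 (-1.15 ± 0.29, adjusted p = 0.0331) and Cidec (-1.91 ± 0.55, adjusted p = 0.0477) fell below vehicle at 12d, in a fit where 18.2% of all genes passed. The vehicle mice of that fit were CFA replicates 1 and 2 and Col replicate 1. They had 561, 510 and 282 CPM of Pnpla2 and 30.1, 57.1 and 12.5 CPM of Cidec. Against the Col vehicle group alone, Pnpla2 was at -0.40 ± 0.23 (edgeR, adjusted p = 0.410).

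At 2d post-Col (10U), all 10 log2 fold changes from vehicle were below 0, from -1.90 to -0.25, beside 48.9% of those of all genes. None of the 10 genes passed, while 2.22% of 14373 genes did. An unadjusted p under 0.05 was reached by 4 of the 10 and by 33.3% of all genes, and by DESeq2's Wald test Pnpla2 and Cidec passed, as did 23.1% of all genes. This turned on replicate 4, which was the deepest 10U library with 27573542 reads, had the highest salivary gland sum of the 4 (75400 CPM) and the lowest level of the macrophage marker Cd68 (18.0 CPM). Its muscle fiber markers summed to 80710 CPM against 34850 to 44760 CPM in the others. Its brown fat-cell markers summed to 243 CPM against 55.8 to 79.7 CPM. The part of depth and of these tissues was not tested. Replicate 4 had the highest level of the 4 mice for 9 of the 10 genes, such as 17.7 CPM of Plin1 against 3.99, 4.05 and 0.667 CPM in the others. Without it, 8 of the 10 genes fell below vehicle, in a fit where 36.3% of all genes passed, 18.4% as lower. Lipe, for example, had a log2 fold change of -1.41 ± 0.19 (adjusted p = 0.00224), Adipoq of -1.86 ± 0.40 (adjusted p = 0.0123) and Lep of -3.39 ± 0.72 (adjusted p = 0.0115), whereas Pnpla2 and Fabp4 did not pass. Between 2d and 6d none of the 10 passed, with 8.73% of 14513 genes passing.

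**Figure D3:**
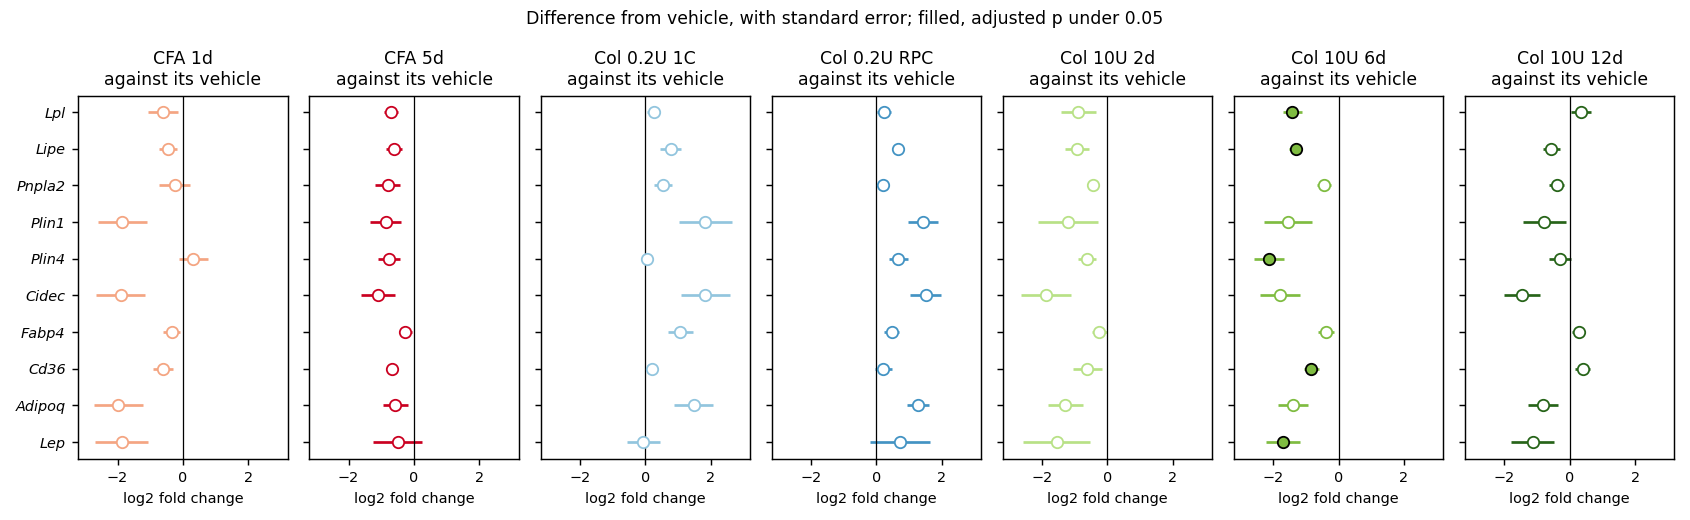
Log2 fold change of each gene from the vehicle group of its own experiment in the 7 treated groups, with the standard error as a bar. Filled points passed at an adjusted p under 0.05, which occurs at 6d post-Col (10U) for Lpl, Lipe, Plin4, Cd36 and Lep, and the 5 Col groups share 1 vehicle group.

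After 0.2U Col the log2 fold changes from vehicle were above 0 for all 10 genes in RPC and for 9 of 10 in 1C, where Lep was at -0.052 ± 0.495. Of all genes tested, 51.3% in RPC and 50.8% in 1C lay above 0. None of the 10 genes passed in 1C or in RPC, where 0.0% of 14493 and 0.0% of 14269 genes passed by edgeR, with 1819 and 1923 genes at an unadjusted p under 0.05, 4 of the 10 among them in each group. DESeq2's Wald test passed 360 genes as higher and 159 as lower in 1C, and 189 and 254 in RPC. By DESeq2's Wald test, Lipe, Plin1, Cidec and Adipoq passed as higher in RPC. For these 4 genes every mouse of RPC was above every vehicle-treated mouse, as were 4.79% of all genes tested. Adipoq was at 91.6, 68.3, 78.9 and 90.9 CPM in RPC (log2 fold change 1.27 ± 0.35, adjusted p = 0.276), Plin1 at 50.5, 39.3, 31.7 and 39.9 CPM (1.43 ± 0.47, adjusted p = 0.299), Cidec at 89.4, 54.1, 63.7 and 60.7 CPM (1.504 ± 0.461, adjusted p = 0.291) and Lipe at 128, 101, 106 and 102 CPM (0.66 ± 0.17, adjusted p = 0.275). The 4 mice of RPC were close together and 1 vehicle-treated mouse, replicate 3, stood nearest to them. Lep, by contrast, was at 2.25, 2.52, 1.22 and 16.4 CPM, within or beside the range of vehicle but for 1 mouse.

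In 1C, 3 mice had more of these genes than any vehicle-treated mouse and 1 mouse did not. Adipoq was at 123, 24.7, 88.9 and 146 CPM (log2 fold change 1.49 ± 0.60, adjusted p = 0.375), Plin1 at 61.5, 7.20, 49.1 and 95.2 CPM (1.84 ± 0.81, adjusted p = 0.402) and Fabp4 at 687, 373, 663 and 1222 CPM (1.08 ± 0.38, adjusted p = 0.329). Cidec, at 111, 14.0, 80.4 and 130 CPM, followed them (1.84 ± 0.75, adjusted p = 0.380), and Lipe was at 127, 60.7, 115 and 172 CPM. The second value in each case belongs to replicate 2, which lay within or beside the range of vehicle, and without this mouse none of the 10 passed either. Of the genes that muscle fibers use, Pnpla2 had a log2 fold change of 0.53 ± 0.275 in 1C (adjusted p = 0.466), and the other 3 had 0.27 ± 0.20 for Lpl, 0.20 ± 0.17 for Cd36 and 0.06 ± 0.20 for Plin4.

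Markers of brown fat cells and of muscle fibers differed from vehicle along with these levels, although 0 of 7 and 0 of 6 brown and 0 of 10 muscle markers passed in 1C and RPC. Muscle fiber markers summed to 96640 to 128500 CPM in 1C and 94020 to 122900 CPM in RPC, against 125700 to 195600 CPM with vehicle, so that every mouse of RPC was below every vehicle-treated mouse. The brown-fat gene Ucp1, which uncouples respiration to make heat, was at 5.15 CPM in the lowest mouse of 1C, with a median of 192 and a highest value of 399 CPM, at 43.5 to 130 CPM in RPC, and at 0.0436 to 2.01 CPM with vehicle. Summed over 7 brown-fat markers, 1C had 735, 467, 475 and 1016 CPM, and RPC had 303 to 458 CPM, within the 149 to 474 CPM of vehicle, a sum that includes Cox8b, which muscle also makes. The 13 white fat-cell markers outside the 10 genes summed to 483 to 1844 CPM in 1C, 831 to 1167 CPM in RPC and 418 to 839 CPM with vehicle. Salivary gland markers were at 99.95 to 16780 CPM in 1C and 14750 to 173500 CPM in RPC. The part of fat, muscle and gland in these levels was not tested.

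**Figure D4:**
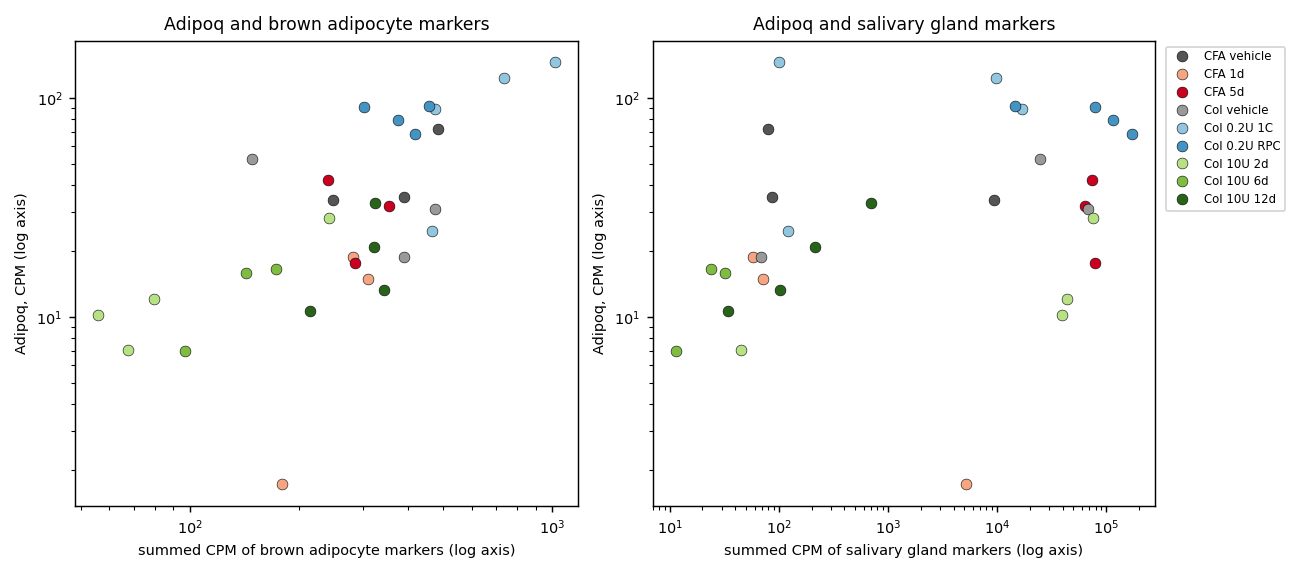
Adipoq in CPM against the summed CPM of brown fat-cell markers (left) and salivary gland markers (right), both axes log, with 1 point per mouse colored by group. The mice of 1C and RPC have 24.7 to 146 CPM of Adipoq and gland sums from 99.95 to 173500 CPM, and the mice at 6d post-Col (10U) have the lowest gland sums, 11.3 to 32.2 CPM.

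After CFA none of the 10 genes passed on either day. At 1d, 0.0% of 13944 genes passed by edgeR (46 genes higher and 10 lower by DESeq2's Wald test). By edgeR 588 genes had an unadjusted p under 0.05, 3 of the 10 among them. Of the 10 log2 fold changes 9 were below 0, beside 51.8% of those of all genes. Plin1 was at 0.532, 5.25 and 4.64 CPM against 7.31, 16.3 and 14.3 CPM with vehicle (-1.85 ± 0.75, adjusted p = 0.924), Adipoq at 1.72, 18.8 and 15.0 CPM against 35.4, 72.1 and 34.0 CPM (-1.97 ± 0.76, adjusted p = 0.924) and Cd36 at 247, 498 and 354 CPM against 557, 614 and 517 CPM (-0.61 ± 0.31, adjusted p = 0.924). In these 3 genes the groups did not overlap, as was so with a lower level for 3.13% of all genes. The mouse with the lowest level of these genes, replicate 1, had the most Plin4 of all 31 mice, 733 CPM beside 307 and 318 CPM in the other mice at 1d, and Plin4 was the 1 gene with a log2 fold change above 0 (0.32 ± 0.44). Without this mouse it was -0.17 ± 0.39.

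At 5d post-CFA all 10 log2 fold changes were below 0, from -1.11 ± 0.52 for Cidec to -0.27 ± 0.20 for Fabp4, beside 52.4% of those of all genes. Of 14026 genes 1.11% passed. Cd36, with 357, 317 and 350 CPM, had the smallest adjusted p of the 10 (-0.68 ± 0.18, adjusted p = 0.138), followed by Lpl at 851, 821 and 648 CPM (-0.72 ± 0.22, adjusted p = 0.188). Every mouse at 5d was below every vehicle-treated mouse for Lpl, Plin4, Fabp4 and Cd36, beside 6.89% of all genes. Lpl with vehicle was at 1229, 1383 and 1313 CPM. Lpl and Cd36 passed by DESeq2's Wald test, as did 6.36% of all genes. Without vehicle replicate 3, which had the only high gland sum of its group (9436 CPM) and 188 CPM of Pnpla2 against 561 and 510 CPM in the other 2, 4 genes passed, Lipe, Pnpla2, Cidec and Cd36, as did 15.6% of all genes. Vehicle replicate 3 also had the lowest muscle fiber sum of its group, 112900 CPM against 232300 and 237000 CPM. Muscle fiber markers summed to 114600 to 180300 CPM at 5d and 116700 to 167200 CPM at 1d. The 13 white fat-cell markers outside the 10 genes summed to 179 to 616 CPM at 1d, lowest in replicate 1, and 345 to 626.5 CPM at 5d. With vehicle they summed to 550 to 1244 CPM, and 0 of 13 passed on either day. Salivary gland markers differed with the groups, and the part of gland, muscle and fat was not tested.

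CFA and 10U Col were set against each other by testing whether the difference from the own vehicle differed. None of the 10 genes passed, for 1d post-CFA against 2d post-Col (10U), where 0.0946% of 14794 genes did, nor for 5d post-CFA against 6d post-Col (10U), where 11.3% of 14892 genes did. In the latter test 9 of the 10 estimates lay above 0, beside 52.1% of those of all genes. An estimate above 0 means that the level was lower relative to vehicle with Col. The largest was 1.38 ± 0.61 for Plin4 (adjusted p = 0.162). When vehicle was set against vehicle, none of the 10 passed (0.0426% of 14070 genes did). Cd36 (0.59 ± 0.21) and Lpl (0.46 ± 0.24) were higher in every vehicle-treated mouse of the CFA experiment than in every one of the Col experiment, as were 2.63% of all genes, with an adjusted p of 1.0 for both.

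The wider pathway was followed in 75 further entries of 5 lists. At 6d post-Col (10U), 69 of them were tested, of which 20 fell and 2 rose, where 13.3% of all genes fell and 14.0% rose. The medians of the 5 lists were -0.75 to -0.20 on the log2 scale beside 0.01 over all genes. Of 18 tested partners of lipolysis 7 fell, led by Abhd5, the coactivator of the Pnpla2 lipase (-0.92, adjusted p = 0.00837). Of 12 genes of droplet structure 5 fell, of 12 other adipokine and receptor genes 5, and of 12 adipogenic transcription factors 1, Klf15 (-1.72, adjusted p = 0.00839). Rarres2, the gene of the adipokine chemerin, had the smallest adjusted p of the lists (-2.23, adjusted p = 0.00146), but 45.6% of its exon bases are shared with a gene on the opposite strand, and it was at 6.37 to 18.5 CPM in all 11 libraries of 10U Col against 28.9 to 37.1 CPM with vehicle.

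Of the 15 tested genes of the Lpl system and fatty acid uptake, 2 fell and 2 rose at 6d, beside 13.3% and 14.0% of all genes. The fatty acid transporter gene Slc27a1 fell (-1.66, adjusted p = 0.00476), and so did Gpihbp1, which holds lipoprotein lipase on the capillary wall, from 32.6 to 66.9 CPM with vehicle to 22.3 to 25.3 CPM (-1.13, adjusted p = 0.0187). In contrast, Fabp5, a fatty acid binding protein also made by macrophages, was at 27.8 to 52.6 CPM against 5.06 to 8.24 CPM with vehicle (2.52, adjusted p = 0.00292), and Apoc2, the cofactor of lipoprotein lipase, at 2.03 to 5.51 CPM against 0 to 0.269 CPM (5.05, adjusted p = 0.00911).

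At 12d against 6d, 14 of 66 entries rose and 6 fell. Of all 14344 genes tested, 1917 rose (13.4%) and 1868 fell, 26.4% in both directions together. Gpihbp1 (1.08, adjusted p = 0.00889) and the caveolin gene Cav2 (1.37, adjusted p = 0.00767) rose, as did Cebpb (2.12, adjusted p = 0.0133), while Fabp5 (-2.45, adjusted p = 0.00590), the droplet gene Plin2 (-0.89, adjusted p = 0.0137) and Lmf2 (-0.64, adjusted p = 0.0119) fell. At 2d, 2 of 69 rose, Cebpb (3.10, adjusted p = 0.0184) and Cebpd (1.77, adjusted p = 0.0408), genes of C/EBP factors that act early in fat-cell formation and also in inflammation, and of Cebpb 20.7% of the exon bases are shared with a gene on the opposite strand. Of all genes, 1.14% rose and 1.08% fell at 2d. Against vehicle, 3 of 67 rose at 12d (Cav2, Cebpb and Pnpla3) and 1 fell (Rarres2), beside 0.762% and 0.466% of all genes. From 2d to 6d, 2 of 69 rose, Cdh13 and Ebf1, and 4 fell, Cebpb, Cebpd, Lipg and Hilpda, beside 4.68% and 4.05% of all genes. After CFA, 0 of 65 passed at 1d and 1 of 65 at 5d, Ebf1 (-1.16, adjusted p = 0.0352), beside 0.0% and 1.11% of all genes. After 0.2U Col, 0 of 70 passed in 1C and 0 of 68 in RPC, where 0.0% of all genes passed in each. Above vehicle were 47 entries in each, beside 50.8% and 51.3% of all genes. Between the effects of CFA and 10U Col, 0 of 69 differed for 1d and 2d, beside 0.0946% of all genes. Of 70 for 5d and 6d, 5 passed above 0 and 3 below it, beside 6.96% and 4.34% of all genes. Among them were Rarres2 and Abhd5 above and Ebf1 below.

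The 10 genes differed in how closely they kept step between mice of a group. For each of the 45 pairs, the SD of the log2 ratio of both genes was computed around the group means, with 22 degrees of freedom, and ranged from 0.23 to 1.19 with a median of 0.74. The smallest was that of Lpl with Cd36 (0.23), although each of these genes alone had an SD of 0.56 and 0.42 within groups. Lipe kept a similar ratio to Fabp4 (0.31) and Cd36 (0.34). Adipoq with Cidec (0.35), Plin1 with Cidec (0.43) and Adipoq with Plin1 (0.49) formed a further set, whose members alone had SDs of 0.88 to 1.17. Ratios across both sets spread more, from 0.61 for Adipoq to Lpl to 0.96 for Plin1 to Cd36. The largest SD of all 45 pairs was 1.19, for Plin1 to Pnpla2, and Pnpla2 was in neither set. Lep kept step with none, with SDs of 0.84 or more in all 9 of its pairs, and its low counts add to this. These are descriptions over mice that share group, depth and tissue mixture.

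**Figure D5:**
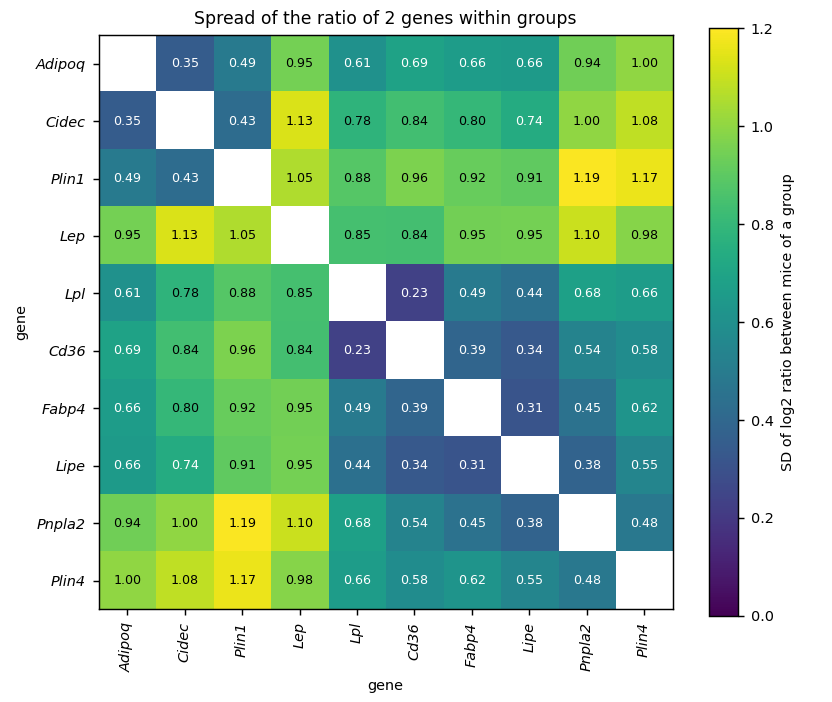
SD of the log2 ratio of the CPM (plus 0.5) of each pair of genes between mice of a group, around the group means. Small values mark pairs in step, such as 0.23 for Lpl with Cd36 and 0.35 for Adipoq with Cidec, and large ones pairs that were not, such as 1.19 for Plin1 with Pnpla2.

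Among 13500 other genes with a mean of at least 1 CPM, the 8 whose ratio to Adipoq varied least over the 31 mice were Cfd, Retn, Adig, Tmem45b, Slc36a2, A530016L24Rik, Cdo1 and Cyp2e1. The SD of their log2 ratio to Adipoq was 0.39 for Cfd, 0.49 for Retn and 0.51 for Adig, and 0.51 to 0.61 for the other 5. Adipsin (Cfd) and resistin (Retn) are fat-cell products, and both were in the lists above, so that these 8 are described only by their levels, with means of 3.54 to 130 CPM.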

How the data were processed

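Poly(A) RNA of masseter muscle was made into stranded TruSeq libraries and read as 50-base single ends. Per the labels, the authors aligned reads to mm9 with TopHat2 and counted them with HTSeq; the deposited values are raw counts per gene symbol, not normalized, and the annotation and strand setting are not given in the sources used here. Symbols were joined to GENCODE vM1 (build NCBIM37), 21627 by symbol and 75 by synonym; 907 without a model took a length of 2842.5 bp.

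Groups follow the sample titles. The 10 genes and the lists were chosen with earlier results of these data known. A gene entered a test where 3 or more of its libraries reached 10 counts. Tests used edgeR 4.0.16 under R 4.3.3 (TMM, quasi-likelihood, Benjamini-Hochberg over all genes tested, threshold 0.05). SE was taken as log2 fold change over root F. Each treated group was compared with its own vehicle, and 2 interactions were tested. P-values measure the spread between mice. Named are the 10 genes, up to 6 list genes that passed per comparison by smallest adjusted p (Gpihbp1 at 6d was added after its values were seen), and the 8 genes most like Adipoq. Alternatives were DESeq2 1.42.0, its size factors, no filter, the study's thresholds, 1 shared fit, a replicate block, leaving out each mouse and pooled vehicles. Depth was 14843778 to 29076671 reads; no 2 of 465 library pairs were identical. Of the 50-base windows of Lpl transcripts, 1.39% occur in other coding transcripts, and none for the other 9 genes. The test was tested on simulated data.

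Same-numbered mice are different animals. Their deviations from group means correlated above 0.1 in every pair for 1d post-CFA and its vehicle (0.19 to 0.606) and for both vehicle groups (0.113 to 0.683), from the data only; the block changed no call of the 10 genes there. In the other comparisons some pairs did not pass this.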

Additional observations from a re-analysis of the deposited data

Results flagged for a closer look

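Within groups of 4 mice, 40 sets of values (10 genes in 4 groups) were searched for a mouse far from the other 3, for which chance alone gives about 1 in 20. There were 3 such values. Plin4 at 2d post-Col (10U) was at 230.0 CPM in replicate 4 against 118 to 136 CPM in the other 3, and Lep in the same mouse was at 3.69 CPM against 0.133 to 0.647 CPM. Lep in RPC replicate 4 was at 16.4 CPM against 1.22 to 2.52 CPM.

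The effect of 10U Col against vehicle differed between 6d and 12d for 3 genes by the test of 12d against 6d (edgeR, adjusted p): Lpl by 1.75 on the log2 scale (adjusted p = 0.0186), Plin4 by 1.80 (adjusted p = 0.0410) and Cd36 by 1.199 (adjusted p = 0.0204). For Fabp4, every mouse was below the vehicle mean at 6d (mean -0.37 on the log2 scale) and above it at 12d (0.25), a difference of -0.62 from 12d to 6d. As a pattern this was not tested, and the direct test of Fabp4 at 12d against 6d did not pass (adjusted p = 0.0604).

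Outside the gene counts, the share of reads that fell on more than 1 gene had a median of 0.815% in the 10U libraries, above every vehicle-treated library.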

How the results depend on the processing

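The values of the 10 genes were recomputed 1470 times in all under the alternatives, 660 of them with 1 mouse left out. No gene that passed in either form of a comparison changed sign, 53 values passed that had not and 37 no longer passed, and of 1300 that passed in neither form 73 changed sign. The cause of the changes below was not tested.

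DESeq2's size factors in edgeR and dropping the low-count filter kept the same number of passing genes in each comparison. The share of all genes that passed in the same fit is given in brackets. DESeq2's Wald test passed 2 genes at 5d post-CFA (6.36%), 4 in RPC (3.1%), and 2 at 2d (23.1%) and 7 at 6d (35.6%) post-Col of 10U. It passed 1 at 6d against 2d (18.7%), 5 at 12d against 6d (37.4%) and 1 between vehicle groups (0.462%). The fit shared by all 31 libraries passed 1 at 2d (33.7%), 3 at 6d (33.7%) and 1 at 6d against 2d (12.6%). The replicate block passed 6 at 2d (31.3%), 3 at 6d (10.3%) and 5 at 12d against 6d (49.2%). The labels tie the replicate numbers to no shared animal. Pooling both vehicle groups passed 4 at 2d (34.4%). Chosen after seeing the data, the shared fit with a salivary gland score as covariate passed 1 in 1C (2.09%), 2 at 2d (33.8%) and 2 at 6d (24.9%). The restriction to libraries under 1000 CPM of gland markers, chosen likewise, passed 7 at 6d (55.9%) and 2 at 12d (18.2%).

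With 1 mouse left out, the number of passing genes was 0 to 4 at 5d post-CFA, 0 to 8 at 2d, 1 to 5 at 6d and 0 to 5 at 12d against 6d, and 0 in each fit of the other comparisons. The highest of these counts came from fits where 15.6, 36.3, 14.7 and 54.2% of all genes passed, in that order. With 3 or 4 mice a group, differences within the error bars were not detectable.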
